A study of Rattus norvegicus with 30 samples.

Results

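Transcripts of 5 aldo-keto reductases (Akr1b10, Akr1b1, Akr1b8, Akr1a1 and Akr7a2) and of sorbitol dehydrogenase (Sord) were described in brain tissue of 10 WT, 10 HIP and 10 AKO male rats on a normal diet. These 6 genes were taken by symbol from a table of 17134 genes, and each had a row. Akr1b10 was picked from its measured values in the table, because it was low in AKO rats, and its differences between AKO rats and the other groups are therefore given without a test. HIP rats are Sprague Dawley rats that express human amylin in pancreatic β-cells beside their own rat amylin and develop type-2 diabetes. WT rats are littermates that express rat amylin only, and AKO rats are rat amylin knockouts. The HIP and WT rats were 15 to 16 months old, and the age of the AKO rats at RNA sequencing is not given in the sources used here. The targeted gene, Iapp, has no row by symbol and is not analysed here.

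Aldo-keto reductases are NADPH-dependent enzymes that reduce aldehydes and ketones, sugars and lipid peroxidation products among them, to alcohols. In the polyol pathway, aldose reductase (Akr1b1) reduces glucose to sorbitol and sorbitol dehydrogenase (Sord) oxidizes sorbitol to fructose. The pathway is known for its activity at high glucose, as in diabetic nerve, lens and kidney. Akr1b10 and Akr1b8 are relatives of aldose reductase, of which human AKR1B10 is known for reducing retinal and lipid aldehydes. Akr1a1, aldehyde reductase, acts on glucuronate on the way to ascorbate, and Akr7a2 reduces succinic semialdehyde, a product of GABA breakdown, to γ-hydroxybutyrate.

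In the RefSeq table of the rat assembly GRCr8, Akr1b10, Akr1b1 and Akr1b8 lie on chromosome 4, in the order Akr1b1, Akr1b8 and Akr1b10, while Akr1a1 and Akr7a2 lie on chromosome 5 and Sord on chromosome 3. Promoter windows, from 250 bases before to 50 bases after the annotated start, were found in RefSeq for 5 of the 6 genes, all but Akr1b1. Shown are the windows of Akr1b10 and its neighbour Akr1b8, and of Akr7a2 and Sord, which varied together over the rats. All 4 genes are on the + strand, and the windows are chr4:64005382-64005681, chr4:63964171-63964470, chr5:156835339-156835638 and chr3:129638418-129638717 of GRCr8, in the order printed, 5′ to 3′. Capitals mark GC boxes, the letters GGGCGG on either strand.
Akr1b10: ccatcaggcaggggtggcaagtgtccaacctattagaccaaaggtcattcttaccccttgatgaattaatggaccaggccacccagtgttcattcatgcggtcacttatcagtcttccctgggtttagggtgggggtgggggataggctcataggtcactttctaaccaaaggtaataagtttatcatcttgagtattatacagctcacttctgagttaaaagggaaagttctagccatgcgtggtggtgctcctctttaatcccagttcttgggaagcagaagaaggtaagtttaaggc
Akr1b8: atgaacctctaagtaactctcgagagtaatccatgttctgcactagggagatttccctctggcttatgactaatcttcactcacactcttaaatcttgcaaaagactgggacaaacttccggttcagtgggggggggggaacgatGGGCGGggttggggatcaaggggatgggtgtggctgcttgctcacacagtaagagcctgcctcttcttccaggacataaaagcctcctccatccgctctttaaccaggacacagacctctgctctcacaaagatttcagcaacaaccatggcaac
Akr7a2: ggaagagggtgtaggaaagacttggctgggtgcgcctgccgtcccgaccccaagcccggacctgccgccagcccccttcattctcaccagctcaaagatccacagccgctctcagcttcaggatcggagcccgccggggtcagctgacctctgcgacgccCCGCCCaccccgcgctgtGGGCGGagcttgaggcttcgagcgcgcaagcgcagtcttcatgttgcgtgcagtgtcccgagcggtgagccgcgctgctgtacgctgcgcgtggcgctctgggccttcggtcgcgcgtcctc
Sord: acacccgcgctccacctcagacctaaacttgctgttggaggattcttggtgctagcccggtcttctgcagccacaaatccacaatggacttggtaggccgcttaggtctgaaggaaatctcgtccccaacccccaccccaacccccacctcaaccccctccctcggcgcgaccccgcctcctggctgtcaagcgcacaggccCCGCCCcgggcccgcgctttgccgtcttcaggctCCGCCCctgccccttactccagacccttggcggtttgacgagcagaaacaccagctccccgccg

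The Akr1b10 window held 46.3% G and C, 2 CpG dinucleotides and no GC box. The Akr1b8 window held 50.3% G and C, 5 CpG and 1 GC box. The Akr7a2 window held 68.7% G and C, 32 CpG and 2 GC boxes, and the Sord window 64.7%, 20 CpG and 2 GC boxes. Akr1a1, whose window is not printed, had 62.3% G and C, 15 CpG and no GC box. Over 33469 windows of this length, 33.1% held a GC box, with a median of 51.7% G and C and 7 CpG. The antioxidant response element, searched as TGACNNNGC on both strands and not overlapping the GC box letters, was in 12.1% of all windows and in none of these 5. Such matches describe these letters in these windows only.

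Values were deposited as normalized counts, read counts per gene divided by a factor for each rat. Estimated reads on genes were 12.9 to 23.6 M per rat. The tissue is called frontal cortex in the sample annotation, hippocampus in the study's results and cerebral cortex in its methods. Tbr1, a transcription factor of excitatory neurons of the cortex, had a log2(normalized count + 1) value of 10.7 to 11.6 in HIP rats and 10.5 to 11.5 in AKO rats. In WT rats it was 4.15 in 10RT43 and 10.5 to 11.6 in the others. Libraries 10RT43 (WT) and 12RT23 (HIP) carried cerebellum genes (mean log2 13.1 and 10.1). Library 10RT46 (HIP) carried pineal gland and choroid plexus genes (9.79 and 8.49), and 7AKO19 (AKO) choroid plexus genes (6.73). Olfactory bulb genes (10 genes, among them Eomes, Tbx21 and Cdhr1) had a mean log2 above 6 in 3 further WT, 3 HIP and 4 AKO rats. Left without any of these signs were 6 WT, 5 HIP and 5 AKO rats. The WT rats and all HIP rats but 12RT23 carry 10RT numbers, whereas 4 AKO rats carry KAH numbers and 6 carry AKO numbers, so the series of numbers and the AKO genotype cannot be told apart.

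Akr1b10 (ENSRNOG00000009734) was at 211 ± 56.9 normalized counts in WT rats, 184 ± 52.1 in HIP rats and 75.9 ± 27.2 in AKO rats (SD, n = 10 per group). WT rats ranged from 142.1 in 10RT50 to 316 in 10RT38, with a median of 194. HIP rats ranged from 121 in 10RT49 to 274 in 12RT23, with a median of 182. AKO rats ranged from 50.1 in 4KAH35 to 145.2 in 6KAH99, with a median of 70.6. Of the 10 AKO rats, 9 were below every WT and every HIP rat, the highest of these 9 being 7AKO28 at 84.3, and 6KAH99 alone lay inside the range of the other groups. WT and HIP rats overlapped over most of their ranges, and 6 of 10 HIP rats were below the WT median. The order of the levels was thus WT, HIP and AKO, of which the neighbours WT and HIP did not differ beyond their spread. In tissue RNA, fewer cells of a type that expresses a gene and less of its RNA per cell cannot be told apart.

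**Figure D1:**
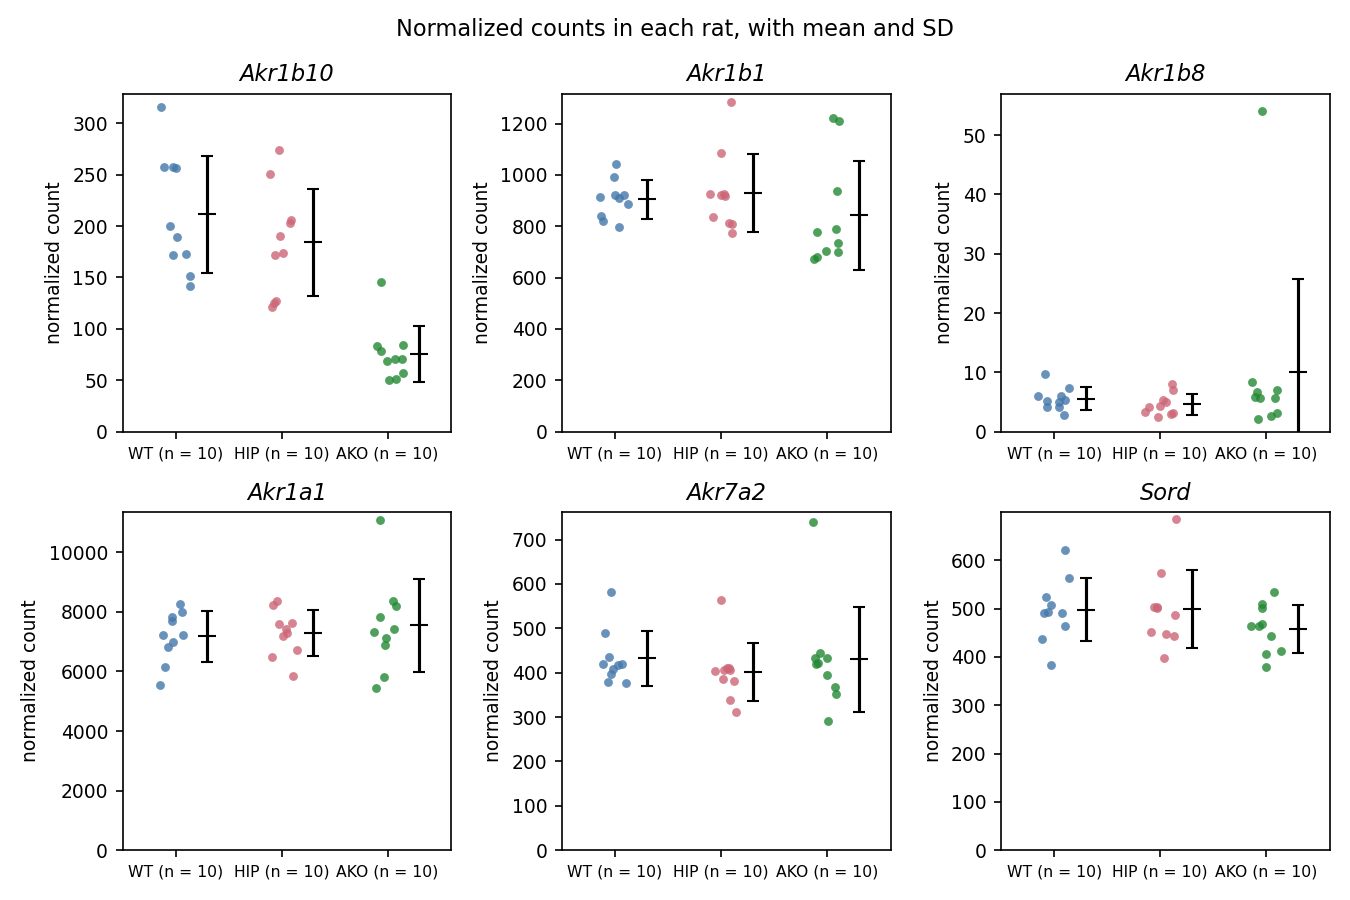
Normalized counts (vertical axes, from 0) of the 6 genes in each WT, HIP and AKO rat, 1 point per rat, with the mean and SD of each group (n = 10) in black beside the points. Akr1b10 sits at 50.1 to 145.2 in AKO rats and at 121 to 316 in the other rats, while the groups overlap for the other 5 genes. The SD bar of Akr1b8 in AKO rats extends below 0 and is cropped there, with 4KAH27 at 54.04.

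On the log2(normalized count + 1) scale, Akr1b10 differed by -1.49 (standard error 0.18) between AKO and WT rats, a 2.80-fold lower level in AKO rats. Between HIP and AKO rats it differed by 1.28 (standard error 0.18), a 2.43-fold higher level in HIP rats. Both comparisons share the AKO rats, and both chose the gene, so neither was tested. Over all genes, 17 of 17058 passed the adjusted threshold of 0.05 (limma, two-sided, Benjamini-Hochberg) in AKO vs. WT rats, 0.0997%, and 29 of 17092 did in HIP vs. AKO rats, 0.17%. Since Akr1b10 was chosen in these contrasts, nothing is read from these shares.

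In HIP vs. WT rats, a comparison that did not serve to choose it, Akr1b10 differed by -0.20 on the log2 scale (95% confidence interval -0.56 to 0.15, limma, two-sided, p = 0.241, adjusted p = 0.999). The interval of the HIP to WT ratio was 0.680 to 1.11. In limma's HIP vs. WT test, 0 of 17085 genes passed the adjusted threshold, 0%, and 439 had an unadjusted p-value under 0.05, 2.57%. Akr1b10 was not among the 439. Its unadjusted p-value was 0.0479 with sample-quality weights (log2 difference -0.32, adjusted p = 0.948) and 0.0350 without libraries of other tissue or rich in olfactory bulb (-0.33, adjusted p = 1.0), with adjusted p-values of 0.893 or more over the alternatives of limma. Without WT rat 10RT38 the difference was -0.13.

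Within AKO rats, Akr1b10 was at 82.3 ± 44.7 normalized counts in the 4 rats with KAH numbers and 71.7 ± 9.13 in the 6 with AKO numbers (SD). The KAH-numbered rats held the 2 lowest values, 50.1 in 4KAH35 and 50.8 in 6KAH98, and the highest, 145.2 in 6KAH99. The log2 difference between both kinds of rat was 0.07 (95% confidence interval -0.55 to 0.68, limma, two-sided, adjusted p = 0.970). In that comparison 1 of 17030 genes passed the adjusted threshold, 0.00587%, and 834 had an unadjusted p-value under 0.05, 4.9%. None of the 6 genes was among them. Low Akr1b10 was thus found in rats of both kinds of number.

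Akr1b10 was also set beside the tissue content of the libraries. In the libraries without the markers named above, it was at 173 to 316 normalized counts in 6 WT rats, 172 to 206 in 5 HIP rats and 50.8 to 83.1 in 5 AKO rats. These values are a description, since the AKO values chose the gene. In the libraries rich in olfactory bulb genes, it was at 142.1, 172 and 200 in WT rats, 121, 127 and 251 in HIP rats and 50.1 to 145.2 in 4 AKO rats. The median in these libraries was 172 in WT rats, against 257 in the 6 WT rats without the markers. It was 127 against 190.5 in HIP rats, where the highest bulb-rich value, 251, was above all 5 without the markers. In AKO rats it was higher in the bulb-rich libraries, 77.5 against 68.7. The part of olfactory bulb content in the values of single rats was not tested.

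**Figure D2:**
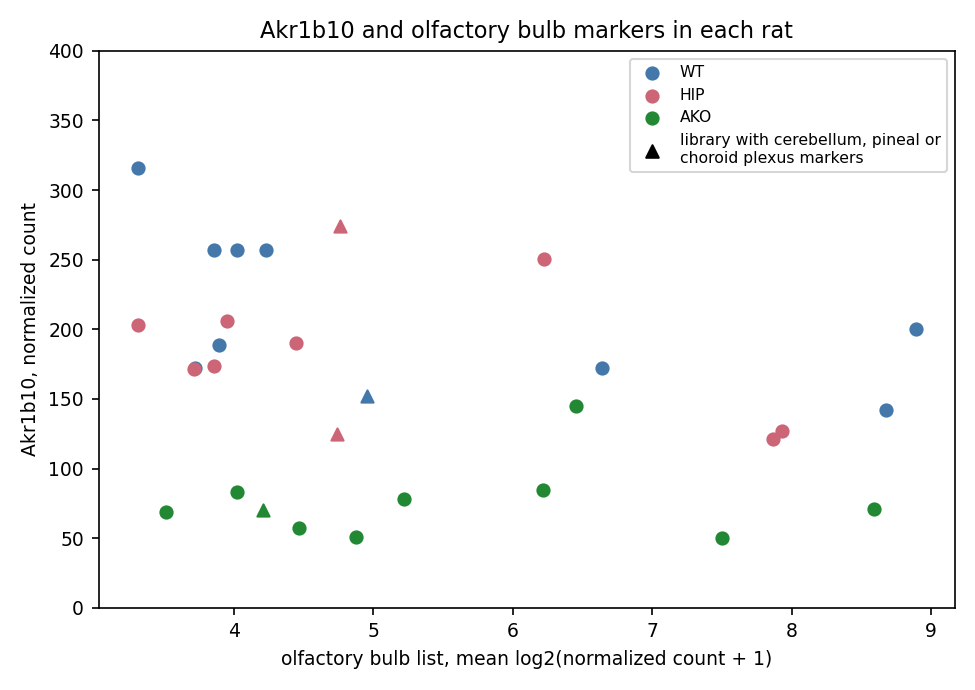
Akr1b10 (vertical axis, normalized count, from 0) against the mean log2(normalized count + 1) of 10 olfactory bulb genes (horizontal axis), 1 point per rat, with triangles for the 4 libraries that carry cerebellum, pineal gland or choroid plexus genes. AKO rats lie at 50.1 to 145.2 along the whole axis, and HIP and WT rats at 121 to 316.

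Akr1b1 (ENSRNOG00000009513), aldose reductase and the entry of the polyol pathway, was at 904 ± 75.3 normalized counts in WT rats, 929 ± 153.3 in HIP rats and 843 ± 211 in AKO rats (SD, n = 10 per group). WT rats ranged from 797 to 1042 (median 912), HIP rats from 775 to 1285 (median 921) and AKO rats from 673 to 1220 (median 756). In AKO rats, 7 of 10 were below every WT rat, while 4KAH27 (1212) and 6KAH98 (1220) were above every WT rat. The highest HIP rat was 10RT46, the library with pineal gland genes. The log2 difference was 0.03 for HIP vs. WT rats (95% confidence interval -0.14 to 0.19), -0.13 for AKO vs. WT rats (-0.36 to 0.09) and 0.16 for HIP vs. AKO rats (-0.09 to 0.41). None passed the test (limma, two-sided, adjusted p = 0.999, 0.694 and 0.580). With the 6 AKO-numbered rats alone against WT rats, the difference was -0.26 (limma, two-sided, p = 0.00434, adjusted p = 0.285), with the 4 KAH-numbered rats alone 0.05 (adjusted p = 0.920), and with sample-quality weights -0.21 (p = 0.00551, adjusted p = 0.0734). Within AKO rats, Akr1b1 was at 966 ± 289 in the 4 KAH-numbered and 760 ± 100.1 in the 6 AKO-numbered rats (log2 difference 0.31, limma, two-sided, adjusted p = 0.894). Without libraries of other tissue or rich in olfactory bulb, only 5 AKO rats were left. They were 6KAH98 and 4KAH27, the AKO rats highest for Akr1b1, against 6AKO52, 7AKO30 and 7AKO42. The log2 difference was then 0.75 (limma, two-sided, p = 0.00298, adjusted p = 0.317). In that setting 2421 of 16963 genes had an unadjusted p-value under 0.05.

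Sord (ENSRNOG00000017291), the enzyme after aldose reductase, was at 498 ± 65.4 normalized counts in WT rats, 499 ± 80.8 in HIP rats and 458 ± 49.2 in AKO rats (SD, n = 10 per group). WT rats ranged from 383 to 622 (median 491), HIP rats from 397 to 685 (median 494) and AKO rats from 378 to 535 (median 463), and the groups overlapped. The highest WT rat was 10RT43 and the highest HIP rat 10RT46, libraries with genes of other tissue. The log2 difference was -0.00068 for HIP vs. WT rats (95% confidence interval -0.19 to 0.19), -0.12 for AKO vs. WT rats (-0.29 to 0.06) and 0.12 for HIP vs. AKO rats (-0.07 to 0.30). None passed the test (limma, two-sided, adjusted p = 0.999, 0.657 and 0.596). For both enzymes of the polyol pathway, the intervals of the HIP to WT ratio, 0.910 to 1.14 for Akr1b1 and 0.876 to 1.14 for Sord, bound the size of a difference in the diabetic rats.

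Akr1b8 (ENSRNOG00000027433), the other relative of aldose reductase, was close to the limit of detection, with 2.03 to 39.4 estimated reads per rat. It was at 5.58 ± 1.91 normalized counts in WT rats, 4.59 ± 1.78 in HIP rats and 10.1 ± 15.6 in AKO rats (SD, n = 10 per group). The WT median was 5.32 (range 2.75 to 9.66), the HIP median 4.26 (range 2.51 to 7.997) and the AKO median 5.78. The AKO mean was set by 4KAH27, at 54.04, with the other 9 AKO rats at 2.20 to 8.43 and a mean of 5.26 ± 2.15. The log2 difference was -0.24 for HIP vs. WT rats (95% confidence interval -0.70 to 0.21), 0.22 for AKO vs. WT rats (-0.57 to 1.0) and -0.46 for HIP vs. AKO rats (-1.25 to 0.33). None passed the test (limma, two-sided, adjusted p = 0.999, 0.863 and 0.631). Without 4KAH27, the difference between AKO and WT rats was -0.11, with its sign turned, and that between HIP and AKO rats was -0.14.

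The 3 genes with the values most like those of Akr1b8 over the 30 rats were Hmox1, heme oxygenase 1, a target of Nrf2, Emp1, an epithelial membrane protein, and Stat3, a signal transducer of cytokine receptors. Pearson's r on the log2 scale was 0.81, 0.81 and 0.79, and Spearman's rho 0.47, 0.55 and 0.51. Without the 2 rats farthest from the Akr1b8 median (4KAH27 and 6AKO52), r fell to 0.46, 0.53 and 0.41. They were left out together, so the part of each rat in the high r was not measured. Rat 6AKO52 had 2.20 normalized counts of Akr1b8 and 107.6 of Hmox1. Rat 4KAH27 had 1040 normalized counts of Hmox1, against 86.7 to 154.8 in the other AKO rats, 53.3 to 116 in HIP rats and 77.4 to 132.7 in WT rats. Emp1 was at 979 in 4KAH27, against 93.5 to 256 in the other AKO rats. This library also had a high mean log2 of striatum genes (9.80, the AKO median being 7.59) and of blood genes (8.16, the AKO median being 5.55), whose part in these values was not tested.

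**Figure D3:**
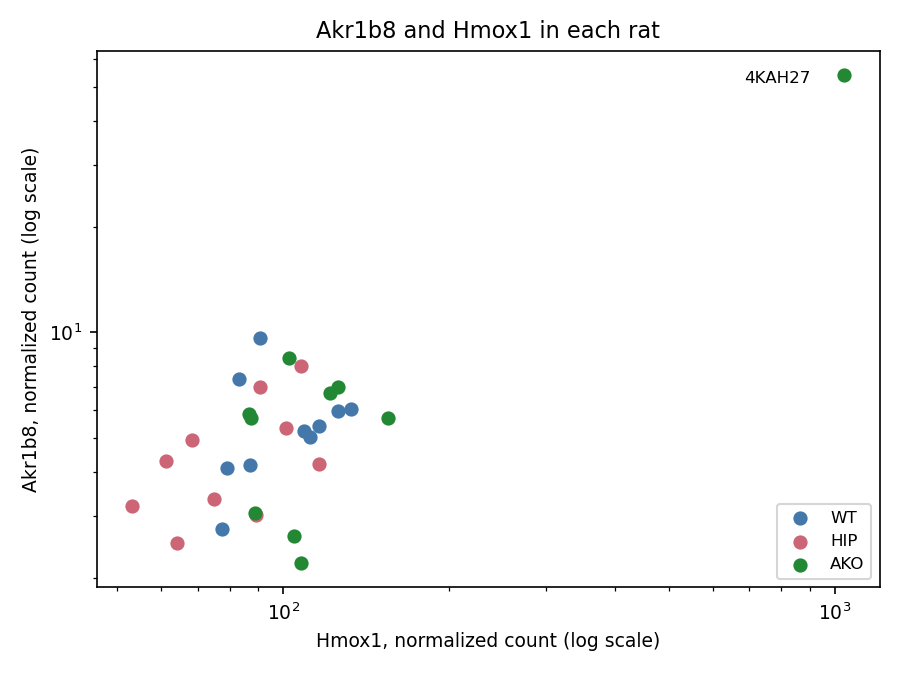
Akr1b8 (vertical axis) against Hmox1 (horizontal axis), normalized counts on log axes, 1 point per rat. AKO rat 4KAH27 lies apart at 54.04 and 1040 normalized counts, and the other rats of the 3 groups lie together at 2.20 to 9.66 counts of Akr1b8.

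Akr1a1 (ENSRNOG00000016727), aldehyde reductase, was at 7174 ± 841 normalized counts in WT rats, 7281 ± 769 in HIP rats and 7547 ± 1555 in AKO rats (SD, n = 10 per group). WT rats ranged from 5558 to 8273 (median 7222), HIP rats from 5854 to 8378 (median 7365) and AKO rats from 5443 to 11072 (median 7370), and the groups overlapped. The log2 difference was 0.02 for HIP vs. WT rats (95% confidence interval -0.14 to 0.18), 0.06 for AKO vs. WT rats (-0.16 to 0.28) and -0.03 for HIP vs. AKO rats (-0.24 to 0.17). None passed the test (limma, two-sided, adjusted p = 0.999, 0.871 and 0.902).

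Akr7a2 (ENSRNOG00000017780), succinic semialdehyde reductase, was at 432 ± 61.3 normalized counts in WT rats, 401 ± 66.1 in HIP rats and 430 ± 119 in AKO rats (SD, n = 10 per group). WT rats ranged from 377 to 581 (median 419), HIP rats from 311 to 563 (median 404) and AKO rats from 292 to 740 (median 421). The highest WT rat was 10RT43 and the highest HIP rat 10RT46, libraries with genes of other tissue. Without them the means were 416 ± 34.1 in WT and 383 ± 35.6 in HIP rats (SD, n = 9). The log2 difference was -0.11 for HIP vs. WT rats (95% confidence interval -0.30 to 0.08), -0.04 for AKO vs. WT rats (-0.29 to 0.22) and -0.07 for HIP vs. AKO rats (-0.33 to 0.18). None passed the test (limma, two-sided, adjusted p = 0.999, 0.937 and 0.817). In HIP rats 9 of 10 were below the WT median, 10RT46 being the exception. The share of all genes with such a split was not counted. Over the alternatives, the HIP vs. WT difference was -0.17 to -0.06 (limma, two-sided, smallest p = 0.0463, smallest adjusted p = 0.891).

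Akr1b10 was not tested in AKO vs. WT or in HIP vs. AKO rats. None of the other 5 genes had an unadjusted p-value under 0.05 there (limma, two-sided). Of all genes tested, 9.34% and 12.7% did (1594 and 2179 genes). The single libraries at the upper end were few. Rat 6KAH98 was the highest AKO rat for Akr1b1, Akr1a1, Akr7a2 and Sord, and 10RT46 the highest HIP rat for Akr1b1, Akr1b8, Akr7a2 and Sord. In WT rats, 10RT43 was the highest for Akr7a2 and Sord. The median correlation with the other rats across all genes was 0.949 for 6KAH98, 0.948 for 10RT46 and 0.885 for 10RT43, where genes are not independent replicates.

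**Figure D4:**
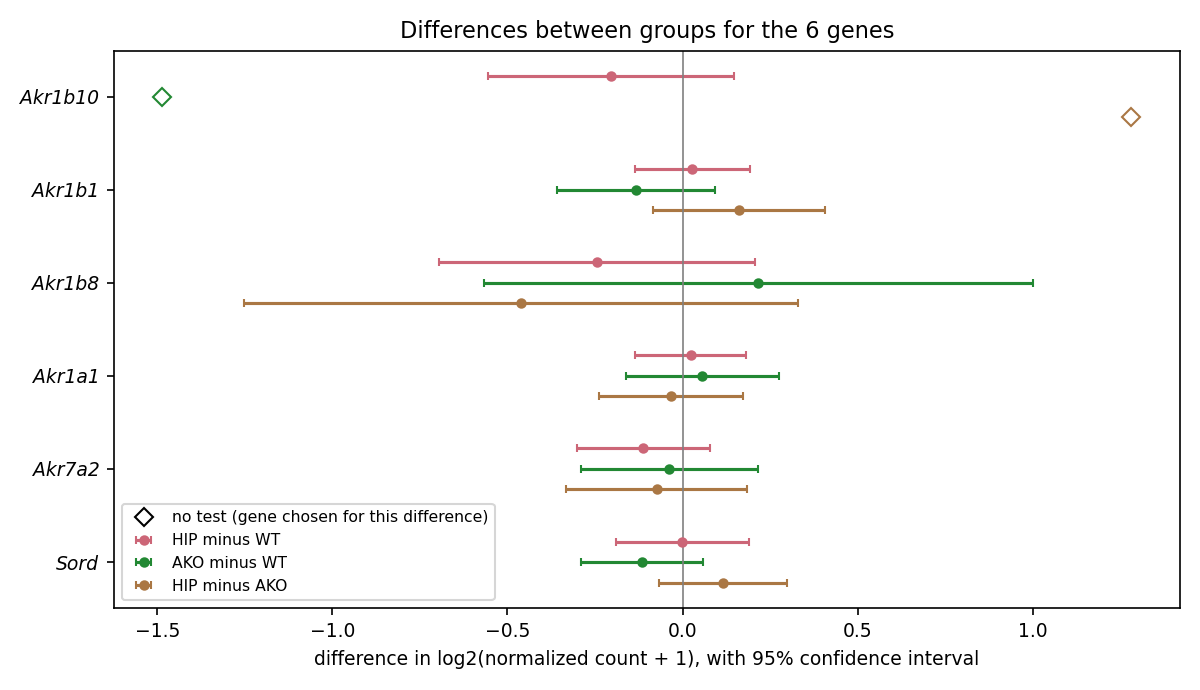
Differences in log2(normalized count + 1) (horizontal axis) for each gene in HIP minus WT, AKO minus WT and HIP minus AKO rats, with 95% confidence intervals of limma. Every interval drawn covers 0, and the open diamonds, at -1.49 and 1.28, are the differences of Akr1b10 that were not tested.

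The levels of the 6 genes were set against each other over the 30 rats. Akr7a2 and Sord had the highest Pearson's r of the 15 pairs, 0.67 (Spearman's rho 0.54, and r 0.72 after each group's mean was removed). Both were highest in 10RT43 among WT rats, 10RT46 among HIP rats and 6KAH98 among AKO rats. The part of these libraries in the r was not measured. Akr1a1 and Akr1b1 followed with r = 0.59 (rho 0.53). Akr1b10 had r between -0.20 and 0.16 with the other 5 genes, and with its neighbour Akr1b8 r was -0.11. These values share libraries, depth and tissue content and are given as a description.

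The 5 genes with the values most like those of Akr1b10 over the 30 rats, on the log2 scale, were Itfg1 (r = 0.80), Pak5 (0.77), Zfp180 (0.76), Clcn4 (0.75) and Pcdhb6 (0.75). Pak5 is a protein kinase of neurons, Clcn4 a chloride transporter of endosomes and Pcdhb6 a protocadherin, a cell adhesion protein of neurons. Since the AKO rats are low for Akr1b10, such genes tend to be low there too, and after each group's mean was removed r was 0.69, 0.65, 0.49, 0.51 and 0.29. Pcdhb6 was at a mean of 64.7 normalized counts in WT rats, 71.0 in HIP rats and 22.7 in AKO rats. Akr1a1 was most like Cdk5, a kinase of neurons (r = 0.97, rho 0.94), followed by Pmm1, phosphomannomutase 1 (0.95), and RGD1311899 (0.94). Akr7a2 was most like Serf2 (0.88), Mpst, a sulfurtransferase (0.86), and Dbndd2 (0.84), and Sord was most like Hdhd3 (0.83), Arl6ip5 (0.83) and Septin4 (0.81).

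Akr1b1 was most like Akr1b1-ps2, an annotated pseudogene of it (r = 0.82), followed by Mpv17l2 (0.82) and RGD1304567 (0.80). Near-identical copies can share reads, and a share of a read leaves a value that is not a whole number of reads. Estimated reads lay within 0.01 of a whole number in 26 of 30 rats for Akr7a2 and for Sord, but in 5 of 30 for Akr1b10, 4 of 30 for Akr1b8, 2 of 30 for Akr1b1 and 2 of 30 for Akr1b1-ps2. These counts of rats give how often such values occurred in the 3 Akr1b genes and the pseudogene. They do not measure how large the shared part of a value was. The genes between which reads were shared were not determined. Akr1a1 lay within 0.01 of a whole number in 0 of 30 rats, at 4648 to 10092 estimated reads. At such levels a small error in the value of 1 read can exceed 0.01 read. In 6KAH99, however, Akr1a1 was at 7073.69 estimated reads, where Akr7a2 was at 377 and Sord at 417. Values that are not whole were thus not limited to the Akr1b genes and the pseudogene.

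The neighbours of Akr1b10 on chromosome 4 were examined because Akr1b1, Akr1b8 and Akr1b7 lie side by side with it. Of the 8 genes on each side with a row in the table, 0 of 16 passed the adjusted threshold in limma's AKO vs. WT test, with log2 differences of -0.32 to 0.22 and a median of -0.06. An unadjusted p-value under 0.05, as 9.34% of all genes tested had, was found for 1 of 16, Cnot4, a ubiquitin ligase of the CCR4-NOT complex (log2 difference -0.16, p = 0.0462, adjusted p = 0.524). In HIP vs. AKO rats, 0 of 16 passed the adjusted threshold and 3 of 16 an unadjusted one of 0.05, as 12.7% of all genes tested did, the largest being the difference of Plxna4, a semaphorin receptor (0.27, p = 0.0343). In HIP vs. WT rats, neither kind of p-value was under 0.05 for any of the 16. Akr1b7, next to Akr1b10 on the other side, was at the limit of detection, with 3.10 ± 4.93 normalized counts in WT rats, 2.07 ± 1.68 in HIP rats and 1.85 ± 2.10 in AKO rats (SD, n = 10 per group). The WT mean was set by 10RT43, a library with cerebellum genes, at 16.7. The other 9 WT rats had a mean of 1.58 ± 1.20. The log2 difference of -0.32 in AKO vs. WT rats is that of Akr1b7. Iapp, the gene that AKO rats lack, is annotated on chromosome 4 too, with 570 genes of the table between it and Akr1b10 in the RefSeq order.

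**Figure D5:**
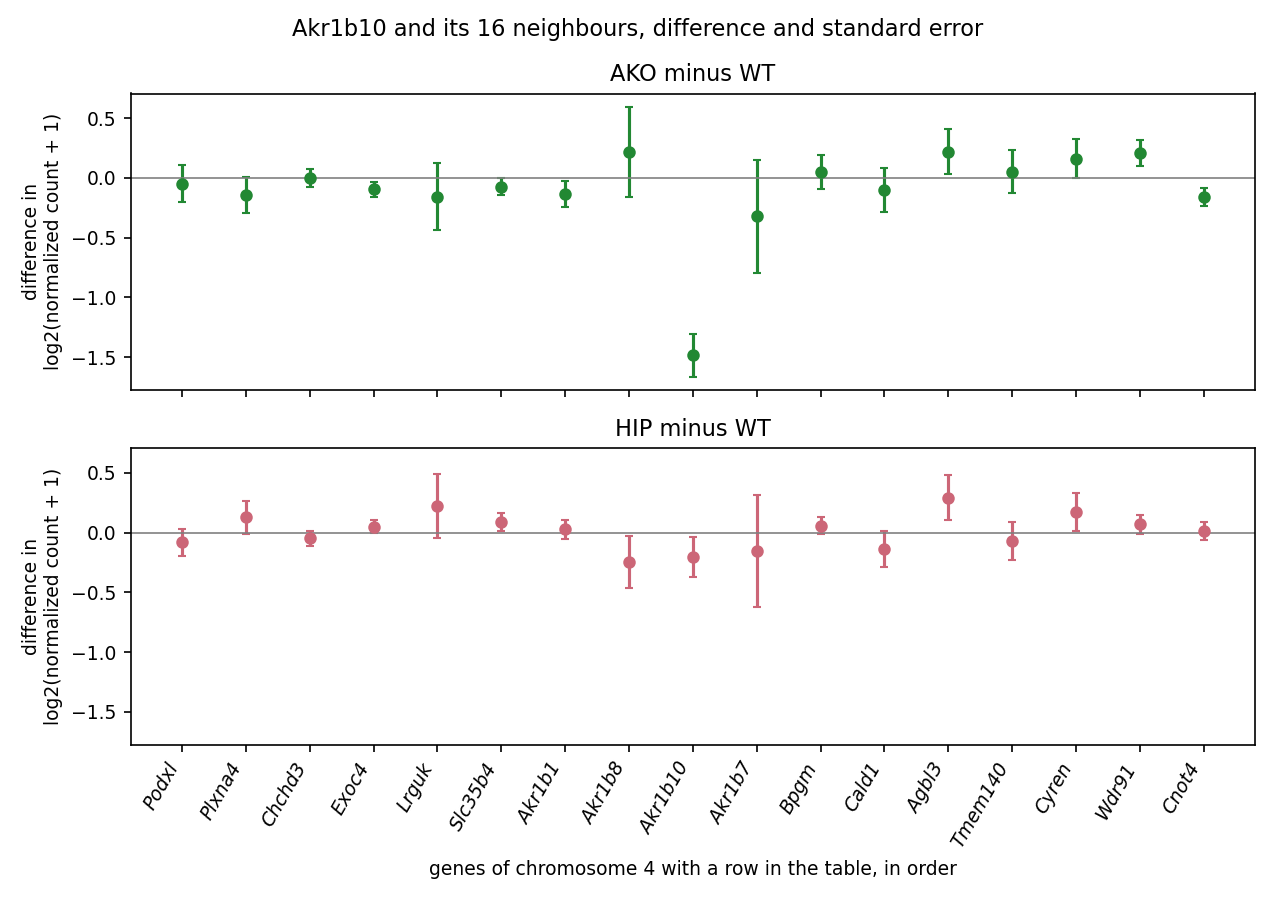
Differences in log2(normalized count + 1) with standard errors (vertical axes) for Akr1b10 and the 8 genes on each side of it that have a row in the table, in their order on chromosome 4 (horizontal axis), for AKO minus WT (upper) and HIP minus WT rats (lower). Akr1b10 lies at -1.49 in the upper panel, and its 16 neighbours at -0.32 to 0.22.

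The genes around these enzymes were described by 7 lists with 108 genes, of which 91 have a row. No gene of the lists passed the adjusted threshold in limma's HIP vs. WT, AKO vs. WT or HIP vs. AKO test, the smallest adjusted p-values being 0.999, 0.189 and 0.149. An unadjusted p-value under 0.05 was found for 0 of 91, 9 of 90 (10.0%) and 9 of 91 (9.89%) tested genes of the lists, beside 2.57%, 9.34% and 12.7% of all genes. The median log2 difference of all genes tested was 0.00184, 0.00142 and 0.00474.

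Of the other aldo-keto reductases, 10 were tested, with a median log2 difference of 0.05 in AKO vs. WT rats. Akr1c19 and Akr1c13, of the family that reduces steroids, had log2 differences of 0.89 (p = 0.0104) and 1.11 (p = 0.0311), and Kcnab3, a β-subunit of potassium channels with an aldo-keto reductase fold, -0.79 (p = 0.00679), in limma's two-sided test. Their adjusted p-values were 0.379, 0.483 and 0.347. Akr1c13 was low in all groups, at 8.13 ± 6.26 normalized counts in AKO rats, 3.31 ± 3.14 in WT rats and 2.59 ± 2.37 in HIP rats (SD, n = 10 per group). Akr1e2, which reduces anhydrofructose, had the smallest p-value of the list in HIP vs. WT rats (log2 difference 0.12, limma, adjusted p = 0.999). In HIP vs. AKO rats it was that of Akr1c13 (log2 difference -1.30, limma, two-sided, p = 0.00903, adjusted p = 0.249).

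Among 15 genes of glucose and fructose handling, the median log2 difference was 0.02 in HIP vs. WT rats, 0.09 in AKO vs. WT rats and -0.05 in HIP vs. AKO rats. Fn3krp, a kinase of sugar-modified (glycated) proteins, was at 898 ± 86.8 normalized counts in AKO rats, 1086 ± 127 in WT rats and 1050 ± 125 in HIP rats (SD, n = 10 per group). Its log2 difference was -0.27 between AKO and WT rats (limma, two-sided, p = 0.00132, adjusted p = 0.189) and 0.22 between HIP and AKO rats (p = 0.00621, adjusted p = 0.228). Slc2a5, the fructose transporter, was at 113 ± 30.9 in AKO rats, 84.8 ± 26.6 in WT rats and 77.4 ± 10.5 in HIP rats, with a log2 difference of -0.49 between HIP and AKO rats (p = 0.00495, adjusted p = 0.220). Khk, ketohexokinase, which phosphorylates fructose, had the smallest p-value of the list in HIP vs. WT rats, with a log2 difference of 0.27 (p = 0.133, adjusted p = 0.999).

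Of 15 genes of aldehyde and carbonyl clearance, Aldh3b1, an aldehyde dehydrogenase, had the smallest p-value in AKO vs. WT rats (log2 difference 1.08, limma, two-sided, p = 0.0202, adjusted p = 0.437). Cbr4, a carbonyl reductase of mitochondria, had the smallest in HIP vs. AKO rats (0.35, p = 0.00149, adjusted p = 0.149), and Aldh3a1 in HIP vs. WT rats (0.42, p = 0.0699, adjusted p = 0.999). The list of 17 Nrf2 target genes also held Nfe2l2, which encodes Nrf2, and Keap1, its inhibitor, both counted here. Of the 17, 13 had a positive log2 difference in AKO vs. WT rats (8586 of all 17058 genes tested did). Their median was 0.13, and none of the 17 had an unadjusted p-value under 0.05. Within AKO rats, 15 of the 17 had a higher value in KAH-numbered rats (8004 of all 17030 genes tested), among which 4KAH27 stood far from the other rats for Hmox1. These counts of signs were not tested. In AKO vs. WT rats, the smallest p-value of the list was that of Gclm, a subunit of the enzyme that begins glutathione synthesis (log2 difference -0.19, limma, adjusted p = 0.545). In HIP vs. AKO rats it was that of Osgin1 (-0.80, p = 0.0298, adjusted p = 0.339), and in HIP vs. WT rats that of Hmox1 (-0.31, p = 0.0502, adjusted p = 0.999).

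Of 7 genes of osmolyte transport and the response to osmotic stress, none had an unadjusted p-value under 0.05 in these comparisons. Hspa4l, a heat shock protein, had the smallest p-value in AKO vs. WT rats (log2 difference -0.23, limma, adjusted p = 0.545) and in HIP vs. AKO rats (0.21, adjusted p = 0.435). In HIP vs. WT rats it was that of Slc6a9 (-0.20, limma, adjusted p = 0.999). Of 14 genes of retinoid handling, also without an unadjusted p-value under 0.05, Crabp2, a retinoic acid binding protein, had the smallest p-value in AKO vs. WT rats (0.51, adjusted p = 0.583). Dhrs3 had the smallest in HIP vs. WT rats (-0.13, limma, adjusted p = 0.999) and Crabp1 in HIP vs. AKO rats (-0.47, adjusted p = 0.514). In the list of the glucuronate, ascorbate and GABA pathways, which hold substrates of Akr1a1 and Akr7a2, Ugp2, the enzyme that makes UDP-glucose, had the smallest p-value in all 3 comparisons. Its log2 difference was 0.06 in HIP vs. WT, -0.12 in AKO vs. WT and 0.18 in HIP vs. AKO rats (limma, adjusted p = 0.999, 0.582 and 0.272).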

How the data were processed

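RNA of brain tissue from 30 male rats (10 WT, 10 HIP, 10 AKO) was sequenced. Per the labels and the study's methods, the authors aligned the reads with STAR 2.7.8a to rn7 in Partek Flow 10.0.22.0228, with Bowtie2 also listed, assigned them to Ensembl105 genes and scaled the counts by DESeq2. The deposited table thus holds a signal, normalized counts that need not be whole. How reads were split between similar genes is not given in the sources used here. Columns were matched to rats by name, and groups were taken from the labels. Each sample is 1 rat by its title. For each rat, the step that stands for 1 read was the one whose multiples (within 0.01 read) held most values below 100. Only 80.1% to 83.4% of these values were whole, so whole reads were not recovered and no count test was run. The totals were 15.4 to 18.0 M, and estimated reads limit the precision of low genes to about 1 read.

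Groups were compared by limma 3.58.1 in R 4.3.3 (lmFit, eBayes with a trend), two-sided, on log2(normalized count + 1). This scale understates the change of low genes. Each fit used the rats compared and genes whose mean was 1 or more, with Benjamini-Hochberg adjustment over all of them and a threshold of 0.05. KAH-numbered and AKO-numbered AKO rats were also compared. The fit was tested on simulated data. The members and lists were chosen with earlier results of these data known. Named are the 6 genes, for each list the genes past the threshold or otherwise the gene with the smallest p, the 5 genes most like Akr1b10 and the 3 most like each other gene (mean of at least 10), and 8 neighbours on each side of Akr1b10. Akr1c19 and Akr1c13 in AKO vs. WT rats and Fn3krp in HIP vs. AKO rats, together with neighbours given singly, were named with their values in view. Promoters and gene order came from RefSeq (GRCr8), with Python 3.11.15. Levels of different genes were not compared, since gene lengths were not used. Alternatives were a filter at a mean of 10 or none, pseudocounts of 0.1 and 5, quantile normalization, weights by sample quality, robust eBayes, rescaling by median ratios, a single fit of the 30 rats, AKO rats of either kind of number against WT rats, and libraries left out.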

Additional observations from a re-analysis of the deposited data

Results flagged for a closer look

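In 4 of the 17 groups of 10 rats examined (6 genes in 3 groups, without Akr1b10 in AKO rats, whose values chose the gene), 1 rat stood apart, with a gap to the next rat, as a share of the range of the group, above the 95% critical value of Dixon. Chance gives about 0.85 of 17 independent groups, and these groups share rats. Akr1b8 was at 54.04 normalized counts in AKO rat 4KAH27, with the others at 2.20 to 8.43. AKO rat 6KAH98 stood apart for Akr1a1, at 11072 with the others at 5443 to 8378, and for Akr7a2, at 740 with the others at 292 to 445. Akr7a2 was at 563 in HIP rat 10RT46, the library with pineal gland genes, with the others at 311 to 410. Causes were not tested.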

How the results depend on the processing

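The log2 difference of Akr1b10 was -1.81 to -1.42 between AKO and WT rats and 1.21 to 1.49 for HIP minus AKO rats over the alternatives, with a direction that the choice of the gene fixes. None of the other 5 genes reached an adjusted p-value under 0.05 in limma under the alternatives run for it, which for Akr1b8 leave out the filter at a mean of 10 in the comparisons with WT and HIP rats. No gene was called in HIP vs. WT rats under any alternative. The number of genes called in AKO vs. WT rats, 17, was 27 with all 30 rats in one fit, 857 with sample-quality weights, 0 for KAH-numbered and 68 for AKO-numbered rats against WT rats, and 3 without libraries of other tissue or rich in olfactory bulb. The number in HIP vs. AKO rats, 29, was 56, 1143 and 3 under the first, second and last of these settings, 70 without 10RT46 and 13 without libraries of other tissue. Within AKO rats, 1 gene was called, and 6 with weights, 2 without libraries of other tissue and 0 without those and the bulb-rich ones. Leaving out each rat in turn gave 10 to 39, 17 to 70 and 1 to 8 calls. The cause was not tested.

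Some differences changed sign, none of them called. Most had been close to 0. The others were, within AKO rats, those of Akr1b8 (0.79), Akr1b1 (0.31) and Akr1a1 (0.12). Between groups they were those of Akr1b8 (0.22) and Akr1b1 (-0.13) in AKO vs. WT rats and of Akr1b1 (0.16) in HIP vs. AKO rats. For HIP vs. WT rats, Akr1b1 was at -0.023 and Akr1a1 at -0.033 with sample-quality weights, -0.022 and -0.037 without 10RT43 and 10RT46, and -0.0066 and -0.019 without libraries of other tissue, Akr1b1 at -0.052 without these and the bulb-rich ones, and Sord at 0.0066 with quantile normalization. For AKO vs. WT rats, KAH-numbered rats alone gave 0.050 for Akr1b1 (AKO-numbered rats alone -0.26) and 0.016 for Akr7a2, AKO-numbered rats alone -0.10 for Akr1b8, and weights -0.22 for Akr1b8 and -0.017 for Akr1a1. Akr7a2 was at 0.011 without 10RT43, 0.0054 without libraries of other tissue and 0.073 without these and the bulb-rich ones. For HIP vs. AKO rats, Akr1b1 was at -0.020 without both kinds of library. Within AKO rats (KAH minus AKO numbers), weights gave -0.0096 for Akr1b1, -0.13 for Akr1a1 and -0.040 for Akr7a2, Akr1b10 was at -0.057 without both kinds of library, and Sord at 0.0080 with quantile normalization and 0.0045 without libraries of other tissue. Leaving out each rat in turn, signs changed for Akr1b1 (HIP vs. WT, -0.026 to 0.055), Akr1b8 (AKO vs. WT, -0.11 to 0.35, negative without 4KAH27, and within AKO rats, -0.020 to 1.29), Akr1a1 (HIP vs. WT, -0.016 to 0.057, AKO vs. WT, -0.0076 to 0.11, HIP vs. AKO, -0.083 to 0.031, and within AKO rats, -0.043 to 0.27), Akr7a2 (AKO vs. WT, -0.13 to 0.020, HIP vs. AKO, -0.13 to 0.017, and within AKO rats, -0.17 to 0.28), Sord (HIP vs. WT, -0.053 to 0.036, and within AKO rats, -0.10 to 0.029) and Akr1b10 (within AKO rats, -0.25 to 0.25). The groups hold 10 rats, the precision of Akr1b8 and Akr1b7 is limited to about 1 read, and libraries left out for their tissue content were chosen after the data were seen. No paired analysis was possible because the labels give no replicate numbers that pair rats across groups.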
